A study of Mus musculus with 32 samples.

Results

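Segments of the mouse trunk are laid down at the front of the presomitic mesoderm (PSM), and 10 genes that mark this front and the young somites were described here in PSM cells grown in culture. They are Mesp1, Mesp2, Ripply1, Ripply2, Foxc1, Foxc2, Tcf15, Meox1, Pcdh8 and Pax3, taken by symbol from the 21886 rows of the deposited count table, where all 10 have a row. The cells came from mouse epiblast stem cells, a pluripotent line (AES0204) that carried a luciferase reporter of Hes7, a repressor whose transcript rises and falls with the segmentation clock. They were sampled in a pair of time courses named Ex5 and Ex4, with 16 dishes each and 1 library per dish, from 165 to 425 min in Ex5 and from 155 to 405 min in Ex4. The event from which these minutes are counted is not given in the sources used here.

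All dishes of both courses shared the same line and the same media. SB431542 (10 µM) and LDN193189 (250 nM), blockers of TGF-beta and BMP receptors, and bFGF (20 ng/ml) were in both induction media, and the Wnt agonist CHIR99021 was given at 10 µM for 30 h and at 1 µM afterwards. No somites, embryo tissue or stem cells before induction were analysed here, so levels were read against other genes of the same libraries. The line is 1 reporter line, the RNA is from whole dishes, and Ex5 and Ex4 differ in everything that differs between independent experiments.

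In the embryo, cells leave the tailbud, stay for some hours in a posterior state held by Wnt and FGF signals, and reach the front of the PSM as these signals fade. There Tbx6 and Notch switch on Mesp2, a bHLH factor that sets the place of the next border, and Mesp2 in turn switches on Ripply2. Ripply1 and Ripply2 are repressor partners that bind Groucho/TLE proteins and end the expression and activity of Mesp2 and Tbx6. Foxc1 and Foxc2, which are forkhead factors, are needed for paraxial mesoderm and somites, and Tcf15 (paraxis), Meox1, Pcdh8 (PAPC) and Pax3 mark forming or formed somites.

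The libraries held 16.1 to 29.5 M counts each (16.1 to 28.6 M in Ex5 and 19.3 to 29.5 M in Ex4). Levels are CPM, read counts per 1 M counts of a library after TMM scaling. Levels compared between genes are CPM per kb of exon, except where CPM or reads are named. The 6 markers that define PSM, among them T, Tbx6 and Msgn1, summed to 2535 to 3034 CPM in Ex5 and to 1984 to 2477 CPM in Ex4, and Hes7 cycled with a period of 135 min (95% interval 129 to 141 min). Intervals of pooled levels below are exact Poisson intervals (95%) and cover counting error only. In bulk samples, fewer cells that express a gene and less RNA per cell cannot be told apart.

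By CPM, without scaling to exon length, the 10 genes fell into 3 bands, which are not an order per kb of exon. Mesp1, Foxc1, Foxc2, Meox1 and Pax3 reached 1 CPM in at least 16 of the 32 libraries, the filter for testing that 11768 rows passed. Ripply2, Tcf15 and Pcdh8 were low, and Mesp2 and Ripply1 stayed near zero, with a median under 0.1 CPM in both courses. Foxc1 alone supplied 83.1% of all reads of the 10 genes, from 75.8% to 87.0% by library. Without Foxc1, the other genes summed to a lowest, median and highest level of 8.63, 11.0 and 15.9 CPM in Ex5 and of 8.52, 9.76 and 12.8 CPM in Ex4. The sum of these genes without Foxc1 thus overlapped widely between the courses.

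**Figure D1:**
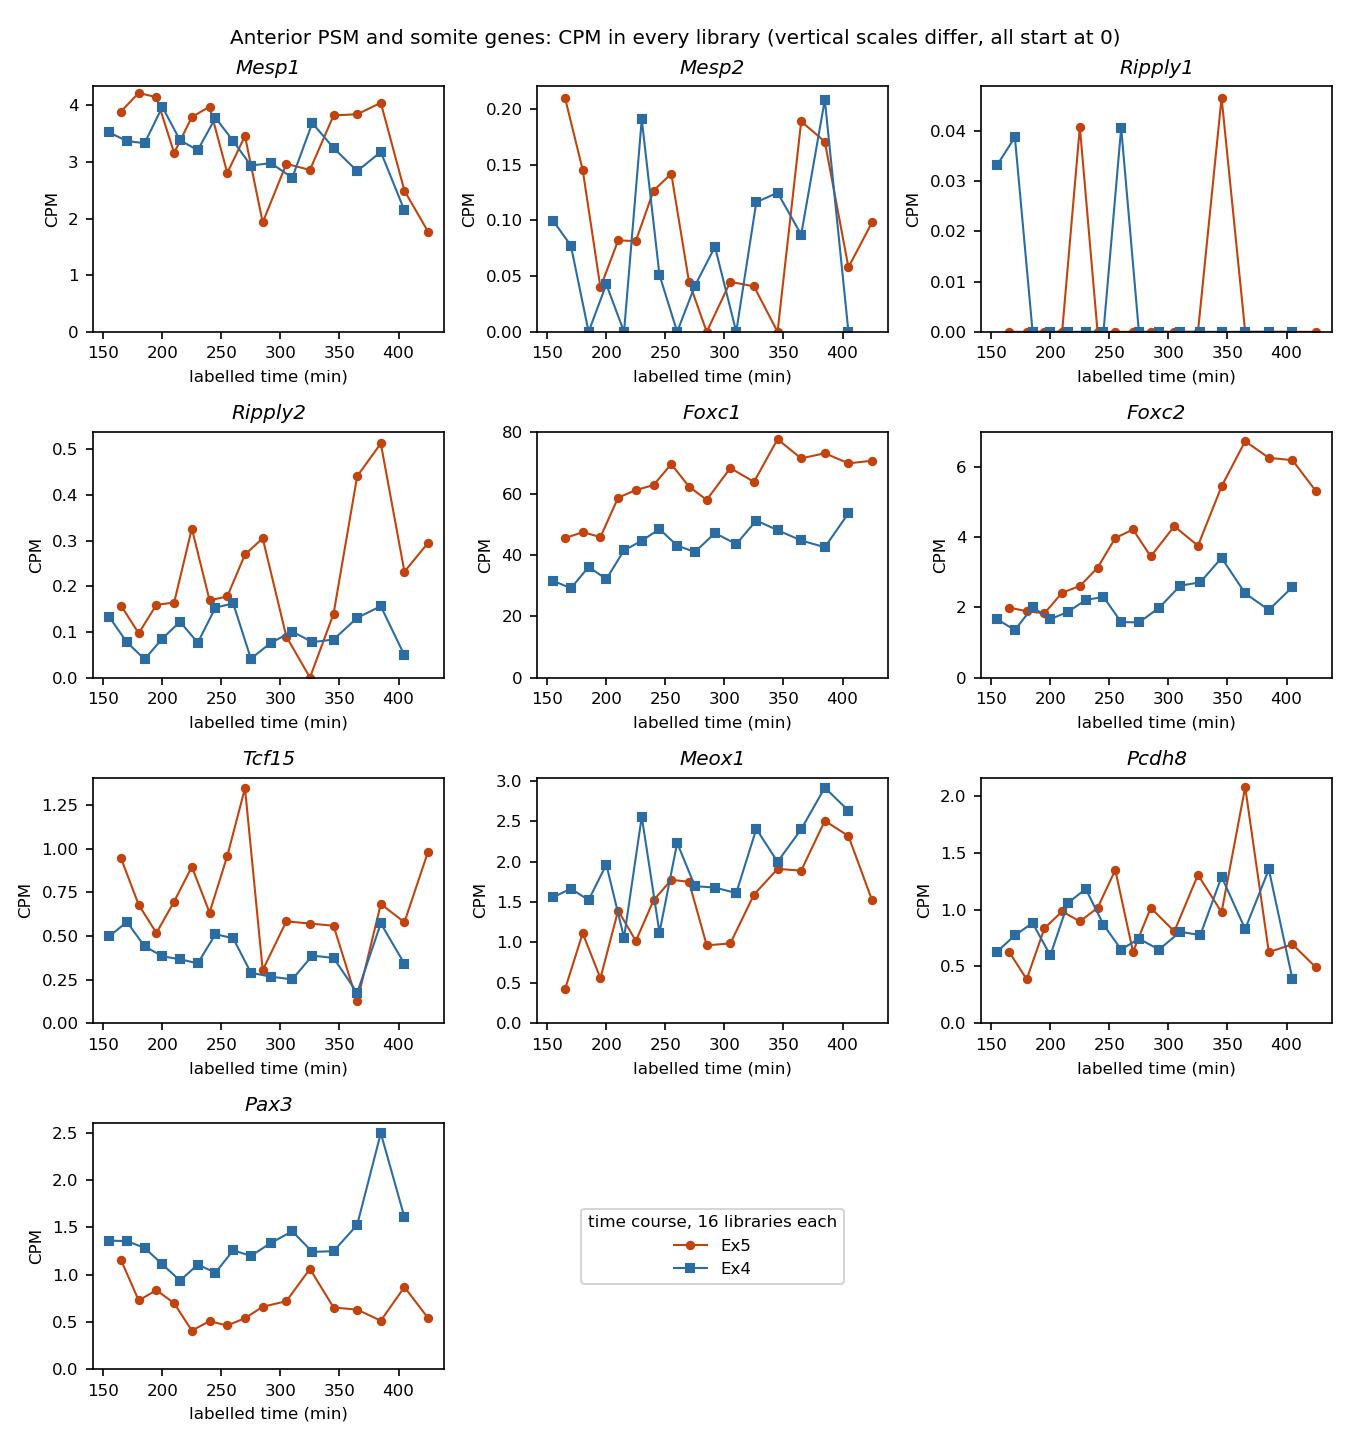
CPM (vertical axis, scale of its own in each panel, starting at 0) of the 10 genes against labelled time in min (horizontal axis), with 1 point per library for Ex5 (red circles) and Ex4 (blue squares). Foxc1 lay between 45.5 and 77.8 CPM in Ex5 and between 29.2 and 53.6 CPM in Ex4, while Mesp2 never passed 0.210 CPM in Ex5 or 0.208 CPM in Ex4.

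Mesp1 and Mesp2 lie head to head on mouse chromosome 7 (GRCm38), Mesp1 on the minus strand at chr7:79792241-79793788 and Mesp2 on the plus strand at chr7:79810727-79813439, 16938 bp apart. Ripply1 is on the minus strand at chrX:139779549-139782353 and Ripply2 on the plus strand at chr9:87015537-87019917. Their promoter windows are shown because these pairs differed widely in level within a pair while every window holds the letters of a T-box element. The 300-base windows (RefSeq, GRCm38.p6) run from 250 bases before the RefSeq start of the gene, 5′ to 3′ on the gene's own strand, at chr7:79793541-79793840 (minus) for Mesp1, chr7:79810477-79810776 (plus) for Mesp2, chrX:139782304-139782603 (minus) for Ripply1 and chr9:87015287-87015586 (plus) for Ripply2. Capitals mark matches to the T-box letters GGTGTG or CACACC and, in Mesp1, to the TCF/LEF letters CTTTGA or TCAAAG.
Mesp1: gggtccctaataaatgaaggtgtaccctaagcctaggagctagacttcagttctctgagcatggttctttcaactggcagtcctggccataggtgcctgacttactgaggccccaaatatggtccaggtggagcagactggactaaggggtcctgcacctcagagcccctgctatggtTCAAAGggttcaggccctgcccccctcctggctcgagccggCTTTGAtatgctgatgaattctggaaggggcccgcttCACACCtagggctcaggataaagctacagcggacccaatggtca
Mesp2: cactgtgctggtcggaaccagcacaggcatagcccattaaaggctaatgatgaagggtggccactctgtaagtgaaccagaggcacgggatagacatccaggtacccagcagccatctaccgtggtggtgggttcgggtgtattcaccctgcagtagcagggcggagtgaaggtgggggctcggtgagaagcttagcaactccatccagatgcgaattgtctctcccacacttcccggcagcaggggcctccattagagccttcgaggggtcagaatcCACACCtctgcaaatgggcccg
Ripply1: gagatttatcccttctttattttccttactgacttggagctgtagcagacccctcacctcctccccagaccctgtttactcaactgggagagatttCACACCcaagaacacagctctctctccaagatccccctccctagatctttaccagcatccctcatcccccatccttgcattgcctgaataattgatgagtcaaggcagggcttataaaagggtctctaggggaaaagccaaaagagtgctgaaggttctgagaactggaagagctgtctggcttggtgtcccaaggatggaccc
Ripply2: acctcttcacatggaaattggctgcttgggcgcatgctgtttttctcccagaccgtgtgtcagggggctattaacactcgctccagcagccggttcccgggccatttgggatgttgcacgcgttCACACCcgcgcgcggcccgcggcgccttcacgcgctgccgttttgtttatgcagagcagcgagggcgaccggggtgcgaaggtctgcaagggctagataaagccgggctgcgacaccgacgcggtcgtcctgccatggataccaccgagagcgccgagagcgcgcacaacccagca

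The T-box letters, searched on both strands, began 6 bases after the start in Mesp1 and 28 bases after it in Mesp2. In Ripply1 they began at position -154 and in Ripply2 at position -126, counted from the start as 0. Windows were at hand for 6 of the 10 genes, and the T-box letters were in 4 of these 6, the windows of Foxc1 and Pcdh8 having none. Over all 32851 windows of this length, 19.0% hold these letters. The TCF/LEF letters were in 1 of 6 windows, that of Mesp1, at positions -72 and -31 (16.0% of all windows), and the RBPJ letters TGGGAA or TTCCCA were in 1 of 6, that of Foxc1, at position 6 (25.6% of all windows). No match overlapped another, and a match to so few letters is a description of the sequence, not a site. Foxc2, Tcf15, Meox1 and Pax3 have no window here. For Mesp1 the GENCODE gene span (to 79793788, minus strand) starts upstream of the RefSeq start. By that span, most of the Mesp1 window and all its matches lie within the gene.

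Mesp2, the border-setting member, was read 58 times in all 32 libraries, 31 times in Ex5 and 27 times in Ex4. Its count per library was 0 to 4 in Ex5 and 0 to 5 in Ex4, and 25 of the 32 libraries had at least 1 read. The lowest, median and highest levels were 0, 0.0818 and 0.210 CPM in Ex5 and 0, 0.0637 and 0.208 CPM in Ex4. The courses overlapped fully and no stretch of times stood out. In Ex5 the spread of the counts was 0.959 times that of counting error, against 1.43 times in Ex4. In a fit without the filter on low counts, the difference of Ex5 minus Ex4 was 0.28 ± 0.41 log2 units (adjusted p = 0.654) and the slope over both courses was -0.10 ± 0.30 log2 units per 100 min (adjusted p = 0.866), so neither was detectable at this depth.

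Mesp1, which in the embryo marks mesoderm newly formed at the primitive streak and the heart field as well as the anterior PSM, was read in every library. Its levels were 1.77 (425 min), 3.62 (median) and 4.22 CPM (180 min) in Ex5, and 2.14 (405 min), 3.29 (median) and 3.97 CPM (200 min) in Ex4. The last library of each course was its lowest, and the courses overlapped. Per kb of exon, Mesp1 stood 62.8-fold above its neighbour Mesp2.

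The last 4 Ex5 libraries averaged 3.04 ± 1.09 CPM of Mesp1 and the first 4 averaged 3.85 ± 0.483 CPM (SD, n = 4 each). In Ex4 the last 4 averaged 2.85 ± 0.504 CPM and the first 4 averaged 3.55 ± 0.294 CPM. Over both courses Mesp1 fell by 0.17 ± 0.06 on the log2 scale per 100 min (estimate ± SE, adjusted p = 0.00948). In this joint fit the slope was -0.21 ± 0.08 in Ex5 (adjusted p = 0.0195) and -0.13 ± 0.08 in Ex4 (adjusted p = 0.190). With each course fitted alone, on 16 libraries, the slope was -0.19 in Ex5 (adjusted p = 0.0791) and -0.16 in Ex4 (adjusted p = 0.0542), of similar size but past the threshold in neither. Among 6 markers of the primitive streak, both that passed the filter, Mixl1 and Lhx1, fell too (26.3% of all tested rows fell). Both were also called higher in Ex5 than in Ex4 (27% of all tested rows), Mixl1 by 0.13 ± 0.05 and Lhx1 by 0.74 ± 0.08 log2 units. Mesp1 was not called different between the courses, at 0.05 ± 0.08 (adjusted p = 0.627). Eomes, which directly activates Mesp1 in the embryo, had 33 reads in all. The 6 markers summed to 42.5 to 85.9 CPM in Ex5 and to 43.1 to 60.1 CPM in Ex4, and none was at 0 in every library. The part of streak-like cells in the level of Mesp1 was not tested.

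Ripply1, the first of the repressor partners, had 5 reads in 728.3 M counts, each in a library of its own, 2 in Ex5 and 3 in Ex4. Its pooled level was 0.00686 CPM (interval 0.00223 to 0.0160 CPM), and no fold change between courses is given for so few reads.

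Ripply2, the second, was read in 31 of the 32 libraries and had 73 reads in Ex5 and 37 in Ex4. Its levels were 0 (325 min), 0.173 (median) and 0.512 CPM (385 min) in Ex5, and 0.0401, 0.0843 and 0.162 CPM in Ex4. Most Ex5 libraries lay above the whole Ex4 range, and Ex5 was higher at 15 of the 16 time points. Time points are matched by number, here and below, and the Ex5 library is the later one at each. In the fit without the filter, Ripply2 was 1.08 ± 0.27 log2 units higher in Ex5 than in Ex4 (2.11-fold, adjusted p = 0.00110). Over both courses the slope of Ripply2 was 0.04 ± 0.20 per 100 min in that fit (adjusted p = 0.948). By course it was 0.24 ± 0.22 in Ex5 (adjusted p = 0.452) and -0.15 ± 0.30 in Ex4 (adjusted p = 0.849), so neither passed. The last 4 Ex5 libraries averaged 0.370 ± 0.129 CPM against 0.1445 ± 0.0318 CPM in the first 4 (SD, n = 4 each). In Ex4 the last 4 averaged 0.105 ± 0.0481 CPM against 0.0839 ± 0.0381 CPM in the first 4. Per kb of exon, Ripply2 stood 24.3-fold above Ripply1.

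Foxc1 (chr13:31806633-31812476, plus strand) was the most abundant of the 10 genes, at 51.9 CPM over all libraries pooled. Its levels were 45.5 (165 min), 63.3 (median) and 77.8 CPM (345 min) in Ex5, and 29.2 (170 min), 43.3 (median) and 53.6 CPM (405 min) in Ex4. At each of the 16 time points the Ex5 library was higher, and in both courses the early libraries were the low ones. The Ex5 library of each number is also the later one, which tilts this count for a gene that rises.

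The last 4 Ex5 libraries averaged 71.4 ± 1.40 CPM of Foxc1 against 49.4 ± 6.27 CPM in the first 4 (SD, n = 4 each). In Ex4 the last 4 averaged 47.2 ± 4.83 CPM against 32.2 ± 2.89 CPM in the first 4. Foxc1 rose by 0.23 ± 0.03 log2 units per 100 min over both courses (adjusted p = 9.41e-08). The slope was 0.22 ± 0.04 in Ex5 and 0.25 ± 0.05 in Ex4, and the difference of -0.02, whose sign turned in some alternatives, did not pass the test (adjusted p = 0.829). At 285 min, the middle of the sampled span, Foxc1 was 0.54 ± 0.05 log2 units higher in Ex5 than in Ex4 (1.45-fold, adjusted p = 9.53e-13).

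Foxc2 (chr8:121116171-121118895, plus strand), the second forkhead factor, was far lower, at 2.93 CPM pooled. Its levels were 1.83 (195 min), 3.87 (median) and 6.74 CPM (365 min) in Ex5, and 1.35 (170 min), 2.00 (median) and 3.41 CPM (345 min) in Ex4. In the first libraries the courses lay close together, and from 255 min on every Ex5 library was above every Ex4 library of the whole course.

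In Ex5 the last 4 libraries averaged 6.13 ± 0.597 CPM of Foxc2 against 2.04 ± 0.266 CPM in the first 4 (SD, n = 4 each). In Ex4 the last 4 averaged 2.58 ± 0.620 CPM against 1.67 ± 0.266 CPM in the first 4. Foxc2 rose by 0.48 ± 0.05 log2 units per 100 min over both courses (adjusted p = 2.02e-09). Its slope was 0.67 ± 0.07 in Ex5 and 0.30 ± 0.08 in Ex4, a difference of 0.37 ± 0.10 that passed the test (adjusted p = 0.0121). With the first and last Ex4 libraries left out, a check added after earlier results were known, this difference was 0.35 with an adjusted p of 0.0524. At 285 min Foxc2 was 0.78 ± 0.08 log2 units higher in Ex5 than in Ex4 (1.71-fold, adjusted p = 8.92e-11). Foxc2 lies within the span of Gm20388, a protein-coding gene on the same strand, and shares no exon base with it.

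The ratio of reads within the forkhead pair was lower late than early in Ex5, which was not tested as a ratio. For each read of Foxc2 there were 11.7 reads of Foxc1 in the last 4 Ex5 libraries and 24.3 in the first 4. In Ex4 there were 18.9 in the last 4 and 19.5 in the first 4. Foxc1 and Foxc2 followed each other across libraries (Pearson r = 0.91 in Ex5 and 0.75 in Ex4 over 16 libraries each), as a description, since the values share libraries and a time trend. Per kb of exon, Foxc1 stood 8.27-fold above Foxc2. Both genes are also used in vascular and heart mesoderm, and of 12 markers of cardiac, lateral and vascular mesoderm 3 were tested. Of these, 0 rose (26.9% of all tested rows) and 1 fell (26.3%), with 0 higher (27%) and 1 lower (28.2%) in Ex5. The summed level of the 12 markers was 4.87 to 9.72 CPM in Ex5 and 5.03 to 8.28 CPM in Ex4, and none was at 0 in every library. The markers that missed the filter went both ways by median. Foxf1 was at 0.6284 CPM in Ex5 and 0.2365 CPM in Ex4, and Hand1 at 0.1195 CPM in Ex5 and 0.3272 CPM in Ex4. The part of such cells in the levels of Foxc1 and Foxc2 was not tested.

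Meox1 (chr11:101877510-101894374, minus strand), a homeobox gene of the somite and its sclerotome, was 1.69 CPM pooled. Its levels were 0.420 (165 min), 1.52 (median) and 2.51 CPM (385 min) in Ex5, and 1.06 (215 min), 1.83 (median) and 2.92 CPM (385 min) in Ex4. Most late libraries were high in both courses, and the ranges overlapped although Ex5 was higher at only 2 of the 16 time points.

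Meox1 averaged 2.06 ± 0.440 CPM in the last 4 Ex5 libraries against 0.872 ± 0.460 CPM in the first 4 (SD, n = 4 each). In Ex4 it averaged 2.49 ± 0.388 CPM in the last 4 against 1.68 ± 0.199 CPM in the first 4. It rose by 0.38 ± 0.08 log2 units per 100 min over both courses (adjusted p = 0.000310), with slopes of 0.47 ± 0.12 in Ex5 and 0.28 ± 0.11 in Ex4. At 285 min Meox1 was lower in Ex5 than in Ex4, by -0.50 ± 0.12 on the log2 scale (0.709-fold, adjusted p = 0.000738). An antisense gene, Gm11551, lies within it and shares no exon base.

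Tcf15 (chr2:152143561-152149097, plus strand), the bHLH factor by which somites become epithelial, had 395 reads and reached 1 CPM in 1 library. Its levels were 0.126 (365 min), 0.656 (median) and 1.35 CPM (270 min) in Ex5, and 0.175 (365 min), 0.379 (median) and 0.581 CPM (170 min) in Ex4. The lowest library was that of 365 min in both courses, and Ex5 was higher at 15 of 16 time points. In the fit without the filter Tcf15 was 0.88 ± 0.18 log2 units higher in Ex5 than in Ex4 (1.84-fold, adjusted p = 0.000115). Its slope over both courses was -0.28 ± 0.13 per 100 min (adjusted p = 0.0800), and so did not pass the test.

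Pcdh8 (chr14:79766775-79771312, minus strand), a protocadherin that Mesp2 acts on at the forming border, had 320 reads in each course. Its levels were 0.388 (180 min), 0.867 (median) and 2.08 CPM (365 min) in Ex5, and 0.390 (405 min), 0.791 (median) and 1.35 CPM (385 min) in Ex4. The courses overlapped, and Ex5 was higher at 8 of 16 time points. In the fit without the filter the difference between Ex5 and Ex4 was 0.13 ± 0.15 log2 units (adjusted p = 0.568) and the slope 0.08 ± 0.11 per 100 min (adjusted p = 0.608). The antisense gene Gm9748 shares 436 bp of exon with Pcdh8, and whether the counting used strand is not given in the sources used here.

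Pax3 (chr1:78101267-78197134, minus strand), a paired-box factor of the dermomyotome that also marks dorsal neural tube and neural crest, was 1.02 CPM pooled. Its levels were 0.408 (225 min), 0.656 (median) and 1.16 CPM (165 min) in Ex5, and 0.937 (215 min), 1.27 (median) and 2.50 CPM (385 min) in Ex4. Ex5 was lower at all 16 time points, though its highest library lay above the lowest of Ex4. At 285 min the difference of Ex5 minus Ex4 was -1.004 ± 0.12 log2 units (0.499-fold, adjusted p = 1.62e-09).

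Pax3 passed the filter through Ex4, where 15 libraries reached 1 CPM, against 2 in Ex5. In the fit without the filter the difference was -1.005 (adjusted p = 2.62e-09). Its slope over both courses was 0.11 ± 0.08 per 100 min (adjusted p = 0.243), from -0.04 ± 0.12 in Ex5 and 0.26 ± 0.09 in Ex4 (adjusted p = 0.0294 in Ex4), and the slope difference of -0.30 ± 0.15 did not pass the test (adjusted p = 0.168). Without the Ex4 library of 385 min, its highest, the Ex4 slope of Pax3 was 0.17 ± 0.09 (adjusted p = 0.181), the slope over both courses 0.07 and the slope difference -0.19. Of 12 markers of neural and neural crest cells, 5 were tested. Of these, 3 (Sox1, Sox2 and Sox3) were also lower in Ex5 (28.2% of all tested rows) and 0 were higher (27%). The summed level of the 12 was 28.9 to 37.6 CPM in Ex5 and 46.8 to 58.0 CPM in Ex4, ranges that did not overlap. The widest gap was that of Sox2, with a median of 11.8 CPM in Ex5 and 29.1 CPM in Ex4. Pax6 (11.4 CPM in Ex5 and 11.8 CPM in Ex4) and Nkx6-1 (1.23 and 1.24 CPM) were not called different, so the gap was not shared by the whole list. None of the 12 was at 0 in every library, but the crest genes Sox10 and Foxd3 had 112 and 27 reads over both courses. The part of neural cells in the level of Pax3 was not tested.

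**Figure D2:**
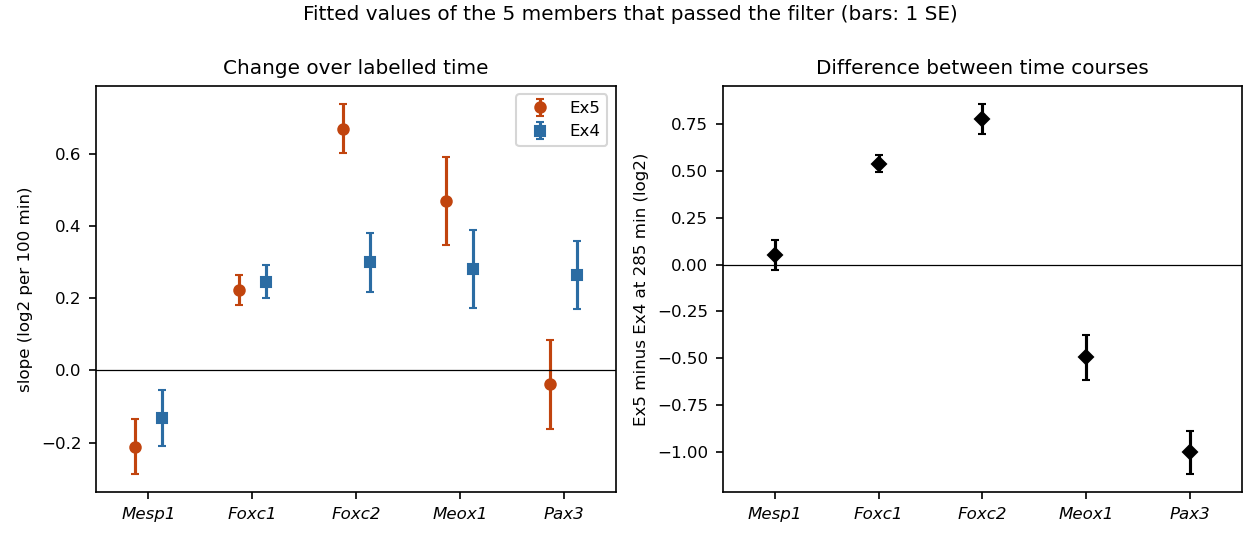
Left, slopes over labelled time (log2 per 100 min) of the 5 tested genes in Ex5 (red circles) and Ex4 (blue squares). Right, the difference Ex5 minus Ex4 at 285 min (log2). Bars are 1 SE. Foxc2 had slopes of 0.67 in Ex5 and 0.30 in Ex4, and Foxc1 and Foxc2 were higher in Ex5 while Meox1 and Pax3 were lower.

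Counted together, 3 of the 5 tested genes rose with time, where 26.9% of all tested rows rose, and 1 of 5 fell, where 26.3% fell. Their median slope was 0.23 log2 units per 100 min, against -0.0011 over all tested rows. Relative to Ex4, 2 of 5 were higher in Ex5 (27% of all rows) and 2 of 5 lower (28.2%). Pax3, 1 of the 2 lower genes, passed the filter through Ex4, and Ripply2 and Tcf15, higher in Ex5 without the filter, missed it. The slope was higher in Ex5 for 1 of 5 (6.61% of all rows) and lower for 0 of 5 (9.03%). With all 10 genes in the fit without the filter, 3 rose (17.8% of all rows with a read) and 1 fell (19.8%), while 4 were higher in Ex5 (19.3%) and 2 were lower (19.9%). These shares show how common trends and course differences were among all rows. The p-values measure only the spread of single dishes around fitted curves.

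None of the 5 tested genes cycled with Hes7 by edgeR's quasi-likelihood test (0 of 5, against 1.36% of all rows), although the p of 3 of 5, and of 1532 of the 11768 tested rows, was under 0.05 before adjustment. DESeq2 and limma-voom called 0 as well, and the fit of all 10 genes without the filter called 0 (0.765% of all rows). Foxc2 came nearest, with a fitted fold from trough to peak of 1.33 (amplitude 0.41 ± 0.11 log2 units, adjusted p = 0.117) and its peak at that of Hes7. At a set period of 120 min, outside the interval of the Hes7 period, Foxc2 passed (adjusted p = 0.00868), and it passed without the Ex5 library of 305 min (adjusted p = 0.0463). The fitted folds of the other tested genes were 1.25 for Mesp1, 1.12 for Foxc1, 1.31 for Meox1 and 1.39 for Pax3. A rhythm that differed between Ex5 and Ex4 was called for 0 of 5 genes and for 0% of all rows by edgeR, and DESeq2 and limma-voom called 0 of 5 as well. Before adjustment, 0 of 5 genes and 641 of all rows had a p under 0.05 in that test.

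Ordered by level per kb of exon, the genes ran from Foxc1 (8.88 CPM per kb) over Mesp1 (2.57), Foxc2 (1.07), Meox1 (0.758), Tcf15 (0.553), Ripply2 (0.205), Pcdh8 (0.194), Pax3 (0.165) and Mesp2 (0.0409) to Ripply1 (0.00846 CPM per kb). Foxc1 was above Mesp1 in 32 of 32 libraries and Mesp1 above Foxc2 in 30. Foxc2 was above Meox1 in 16 of 16 Ex5 libraries and in 5 of 16 Ex4 libraries, so the order of this pair differed between courses. Meox1 was above Tcf15 in 7 of 16 Ex5 libraries and in 15 of 16 Ex4 libraries. Tcf15 was above Ripply2 in 29 of 32. Ripply2, Pcdh8 and Pax3 were not separated over both courses, Ripply2 lying above Pcdh8 in 12 of 16 Ex5 and 3 of 16 Ex4 libraries, and Pcdh8 above Pax3 in 14 of 16 Ex5 and 4 of 16 Ex4 libraries. Pax3 was above Mesp2 in 31 of 32 libraries, and Mesp2 above Ripply1 in 23.

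Most posterior PSM and tailbud genes stood above these levels, with a median of 74.5 CPM per kb over 18 genes against 0.379 over the 10 genes, but the ranges overlapped. Cdx4 (0.0818 CPM per kb) and Cdx1 (1.89), homeobox genes of that list, were below Foxc1 and Mesp1, and Wnt5a (12.3) was little above Foxc1. T, a T-box factor of the tailbud, was at 266 CPM per kb, which is 29.9 times Foxc1, 103 times Mesp1 and 6486 times Mesp2. Tbx6, an activator of Mesp2, was at 275 CPM per kb, and T and Tbx6 were the highest genes of that list. As a floor, 9 genes that PSM cells should lack were read at up to 0.197 CPM per kb, the highest being Krt5, a keratin gene of basal epithelium. The next of them, Gfap of astrocytes, was at 0.0247 CPM per kb, so the floor rests on Krt5 alone, and Mesp2 (0.0409) lay between the pair. Over both courses pooled, Mesp2, Ripply1, Pcdh8 and Pax3 lay under Krt5 per kb of exon. The course medians of Mesp2, Ripply1 and Pcdh8 were also under this pooled Krt5 level in both courses. The median of Pax3 was 0.106 CPM per kb in Ex5 and 0.205 in Ex4, and that of Ripply2 was 0.236 in Ex5 and 0.115 in Ex4. Krt5 itself had a median of 0.5628 CPM in Ex5 and 0.2915 CPM in Ex4. Its pooled level is thus not the floor of either course, and the order against Krt5 within a course is not given. On the CPM scale, with both courses pooled, Mesp2, Ripply1 and Ripply2 were under Krt5 (0.434 CPM), and Pcdh8 and Pax3 were not.

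**Figure D3:**
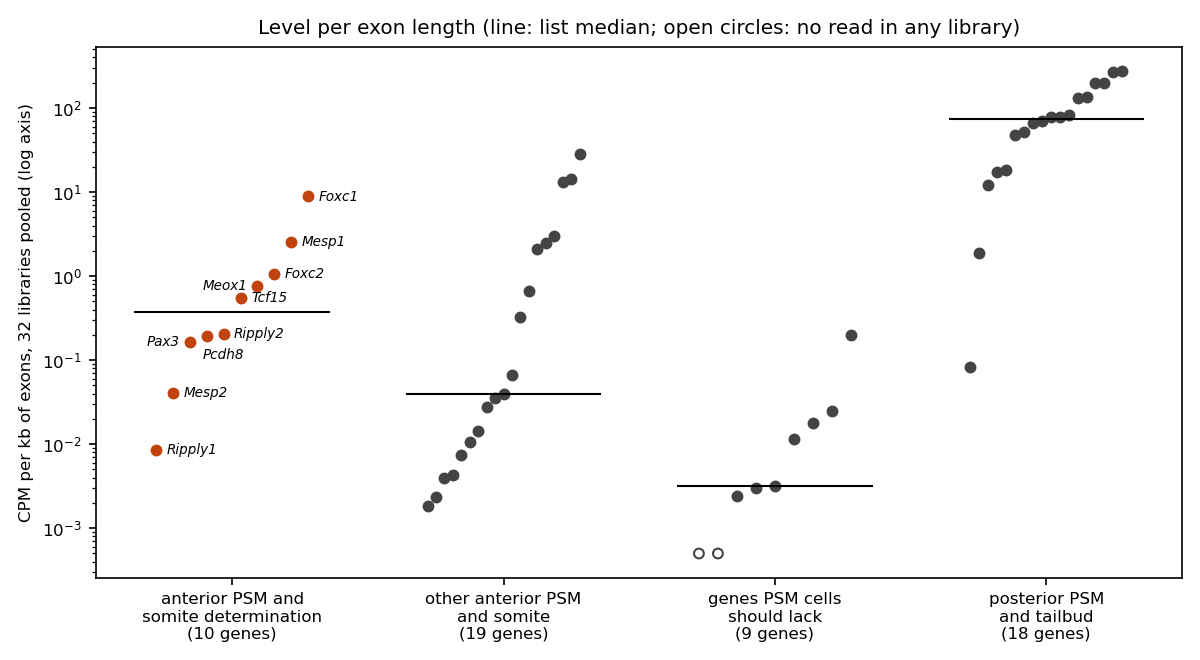
Level per exon length (CPM per kb, 32 libraries pooled, log axis) of the 10 genes, of 19 other anterior PSM and somite genes, of 9 genes that PSM cells should lack and of 18 posterior PSM and tailbud genes. Each point is 1 gene, lines are list medians (0.379, 0.0395, 0.00321 and 74.5 CPM per kb from left to right), and open circles are 2 genes with no read.

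Of 19 other anterior PSM and somite genes, 9 were under 0.1 CPM, among them the somite genes Tbx18, Pax1, Pax9, Myf5 and Myod1, and 8 passed the filter. The highest were Aldh1a2 (28.6 CPM per kb), Epha4 (14.2) and Fst (13.3), each above Foxc1 (8.88), so this list was not near zero throughout. Of the 8 that passed the filter, 2 rose (26.9% of all tested rows) and 5 fell (26.3%), with a median slope of -0.16 per 100 min. Dmrt2, a factor of the dermomyotome, rose by 0.36 ± 0.04 log2 units per 100 min, and Epha4, a receptor at somite borders, by 0.07 ± 0.02. Fst, whose protein binds activin, fell by 0.79 and Pax7, a factor of the dermomyotome, by 0.40 log2 units per 100 min.

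The 14 genes listed as acting upstream of Mesp2 or as belonging to the Groucho/TLE family all passed the filter. Of these, 10 rose (26.9% of all tested rows) while 3 fell (26.3%), with a median slope of 0.11 per 100 min. Tbx6 rose by 0.18 ± 0.02, the receptor Notch1 by 0.26 ± 0.02, the ligand-family gene Dll3 by 0.17 ± 0.02 and Lfng, a Notch-modifying enzyme, by 0.19 ± 0.04 log2 units per 100 min. The 3 that fell were Aes and Tle2, genes of the Groucho/TLE family, each by 0.31, and Maml1 by 0.06. Of these 14 genes, 8 were higher (27% of all tested rows) and 3 lower (28.2%) in Ex5 than in Ex4. Of 18 posterior PSM and tailbud genes, 17 passed the filter. Of these, 3 rose (26.9% of all tested rows) and 10 fell (26.3%), with a median slope of -0.07. Those that rose were Tbx6, Hes7 (by 0.13) and Dll1 (by 0.06), of which Tbx6 and Dll1 also belong to the 14 genes above. Among those that fell, the homeobox gene Cdx1 fell by 1.23 and the ligand gene Wnt3a fell by 0.25 log2 units per 100 min.

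Genes whose pattern was most like that of a tested member were named by the smaller of the within-course Pearson correlations of log2 CPM (16 libraries each), as a description. For Foxc1 these were Gpat3 (0.92), Rbms1 (0.91) and Fzd7 (0.91), and for Foxc2 they were Cyth1 (0.83), Nrarp (0.82) and Stambpl1 (0.82). Meox1 was most like Ypel1 (0.75), Itga8 (0.74) and Tmem109 (0.73). Mesp1 (Grrp1 at 0.66) and Pax3 (Dcaf6 at 0.64) had weaker matches.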

How the data were processed

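Polyadenylated RNA of 32 dishes was sequenced, and the authors deposited raw read counts per gene symbol; per the submitters' processing notes these involved bcl2fastq 2.17.1.14, cutadapt 1.14, HISAT2 2.1.0, HTSeq 0.6.1 and the build mm10. Neither the annotation nor the strand setting used in counting is given in the sources used here. Columns were matched to samples by the sample descriptions, with 0 columns unused and 0 identical libraries. Rows that reached 1 CPM in 16 or more libraries (11768 of 21886, of which 3706 were 0 throughout) were fitted with edgeR 4.0.16 (R 4.3.3, TMM, quasi-likelihood F test). The model gave each course its own intercept and linear slope, with time centred at 285 min, and both courses 1 common cosine-sine pair on the Hes7 phase, which was fitted by least squares to log2 CPM of Hes7. Trend is the mean of both slopes, and differences are Ex5 minus Ex4. P-values were adjusted over all fitted rows (Benjamini-Hochberg, 0.05). The script was tested on simulated data.

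Each time point has 1 library per course, so the error comes from deviations from the curves. Near zero means a median under 0.1 CPM in both courses. Positions and exon lengths come from GENCODE M21 (GRCm38), matched by symbol. The 10 genes and all lists were chosen with earlier results of these data known. From each of 2 lists, 1 gene is not reported here. Named genes are the members, the listed genes that bear on them and, for each tested member, up to 3 genes of highest likeness; Krt5, Dmrt2, Epha4, Fst and the like were picked from the lists after their values were seen. Alternatives were other scalings and filters, DESeq2 1.42.0, limma-voom (limma 3.58.1), other periods and time terms, each course alone, a replicate block and leaving out each library.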

Additional observations from a re-analysis of the deposited data

Results flagged for a closer look

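The slope of Foxc2 over labelled time differed between the courses in a test of the difference itself. It was 0.67 ± 0.07 log2 units per 100 min in Ex5 and 0.30 ± 0.08 in Ex4, a difference of 0.37 ± 0.10 (edgeR, adjusted p = 0.0121). Its levels were higher in Ex5 at 15 of 16 time points, matched by number, with the Ex5 library always the later one. No cause was tested.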

How the results depend on the processing

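In every alternative in which trend or level was fitted, 3 members rose and the level differences of Foxc1, Foxc2, Meox1 and, where it passed the filter, Pax3 kept their direction and call. Under both other scalings (library totals and DESeq2 size factors), 2 members were near zero. Members higher in Ex5 numbered 4 without the filter and 4 with a filter of 0.1 CPM, which admit Ripply2 and Tcf15. Members falling with time numbered 0 in Ex5 alone (Mesp1 slope -0.19), 0 in Ex4 alone (-0.16) and 0 with both end times of Ex4 left out (-0.14, adjusted p = 0.0547). That last setting, added after earlier results were known, tested 4 members, because Pax3 then misses the filter. Under it 1 member was lower in Ex5, 0 had a slope difference (Foxc2 0.35), and the slope difference of Foxc1 was 0.006277, against -0.02 with all libraries. Members cycling with Hes7 numbered 1 at a period of 120 min (Foxc2, amplitude 0.49). Leaving out 1 library gave 0 to 1 cycling members and slope differences of Foxc1 from -0.06102 to 0.006271, positive only without the second Ex4 time point. The cause of these changes was not tested.

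Time points of the same number lie 10 to 20 min apart, always with the Ex5 dish the later, and the labels do not pair the dishes. Deviations of same-numbered libraries correlated by 0.0486 to 0.545, and 3 of 16 Ex5 libraries correlated best with their own number. With the replicate block, slope differences were 0.00361 for Foxc1 and 0.42 for Foxc2, the level difference of Pax3 was -0.95, and no call changed. Counts of 0 to 9 reads per library for Mesp2, Ripply1 and Ripply2 limit what could be detected. Each course is 1 experiment, so differences between them have no replicate at that level.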

Other observations

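In Ex4, the library of 385 min was the highest of its course for 4 of the 10 genes. This library was picked after the values were seen, and how many of all rows were highest in it was not counted. With 19.3 M counts it was the smallest of Ex4. It held 0.208 CPM of Mesp2, 2.92 CPM of Meox1, 1.35 CPM of Pcdh8 and 2.50 CPM of Pax3. The Mesp2 value is 4 reads, against 5 reads (0.191 CPM) in the library of 230 min. Leaving it out changed no trend, level, slope difference or rhythm call among the 5 tested members. It moved the Ex4 slope of Pax3 to 0.17 (adjusted p = 0.181), against 0.26 with it (adjusted p = 0.0294), and that of Meox1 to 0.25 (adjusted p = 0.107), against 0.28 with it (adjusted p = 0.0439).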
